A study of Homo sapiens with 6 samples.

Results

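The tricarboxylic acid (TCA) cycle oxidizes acetyl-CoA in the mitochondrial matrix and hands the electrons to the respiratory chain as NADH and FADH2. Glutamine and pyruvate refill the cycle with carbon, citrate leaves it for fatty acid synthesis, and the malate-aspartate shuttle carries the reducing equivalents of cytosolic NADH into mitochondria. In hypoxic tumor cells less pyruvate is generally oxidized in the cycle, and reductive use of glutamine-derived 2-oxoglutarate is known to supply citrate. The transcripts of 31 enzymes and carriers of these routes, listed by their function, were described here in H460 cells. A member was represented by its brightest probe set among those annotated with a single gene symbol, and 28 members of 18417 genes had one. The fumarase gene FH, the liver-type glutaminase gene GLS2 and the glutamate dehydrogenase gene GLUD1 had none and were not analysed here.

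H460 cells, an established line derived from large cell lung cancer, were all kept for 16 h in medium low in serum. RNA was hybridized to 6 Human Gene 1.0 ST arrays, 1 for each condition: normoxia with dimethyl sulfoxide (DMSO, the vehicle), normoxia with 100 nmol/L BAY 87-2243, hypoxia at 1% oxygen with DMSO, and hypoxia with BAY 87-2243 at 100 nmol/L and at both lower doses of 1 and 10 nmol/L. BAY 87-2243, called the compound below, is described by the study as an inhibitor of HIF-1 activity and of mitochondrial complex I. The labels of both lower-dose arrays conflict, since the array titled 10 nM has 1 nM as its source name and the array titled 1 nM has 10 nM, so these arrays were named by title and were not ordered by dose.

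With 1 array for each condition, no difference has a replicate check, and no test, error or p-value could be given. A value is a linear array intensity, and a log2 difference is that between a pair of arrays for the same probe set. Intensities of different genes were set only against the array medians and not against each other. In bulk RNA, fewer cells that express a gene and less RNA in each cell cannot be told apart. As a check of the hypoxic response, ADM (adrenomedullin), a HIF target, differed by 3.57 log2 between hypoxia and normoxia with DMSO. Between 100 nmol/L and DMSO in hypoxia it differed by -3.40. The other check genes ANKRD37, HILPDA, PDK1 and BNIP3 differed by 3.79, 2.63, 0.89 and 0.63 in the first comparison. In the second they differed by -3.55, -3.88, -0.31 and -0.53. At 100 nmol/L, hypoxia remained higher by 0.62 log2 for ADM, 0.90 for ANKRD37, 0.85 for HILPDA, 0.78 for PDK1 and 0.50 for BNIP3. On the array titled 10 nM, ADM, ANKRD37, HILPDA, PDK1 and BNIP3 differed from hypoxic DMSO by 0.03, -0.16, 0.10, 0.04 and 0.04 log2. On the array titled 1 nM they differed from it by -0.76, -0.999, -0.93, -0.21 and -0.37. Which label gives the right dose was not tested. The epithelial keratins KRT8, KRT18 and KRT19 lay far above the array medians of 128 to 140 on all arrays (7807 to 11774), whereas EPCAM (63.8 to 76.7) and CDH1 (29.8 to 45.8) lay below them. Of the markers of other cell types, PTPRC, PECAM1 and DCN were below 50 on all arrays, and CD14, COL1A1 and PDGFRB lay above the array medians (161 to 381).

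All 28 members were brighter, by their mean over the arrays, than the median probe set. They are therefore set beside the 11301 genes that were equally so, called the brighter genes. A member was counted as higher or lower from a difference of 1.5-fold (0.585 log2).

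**Figure D1:**
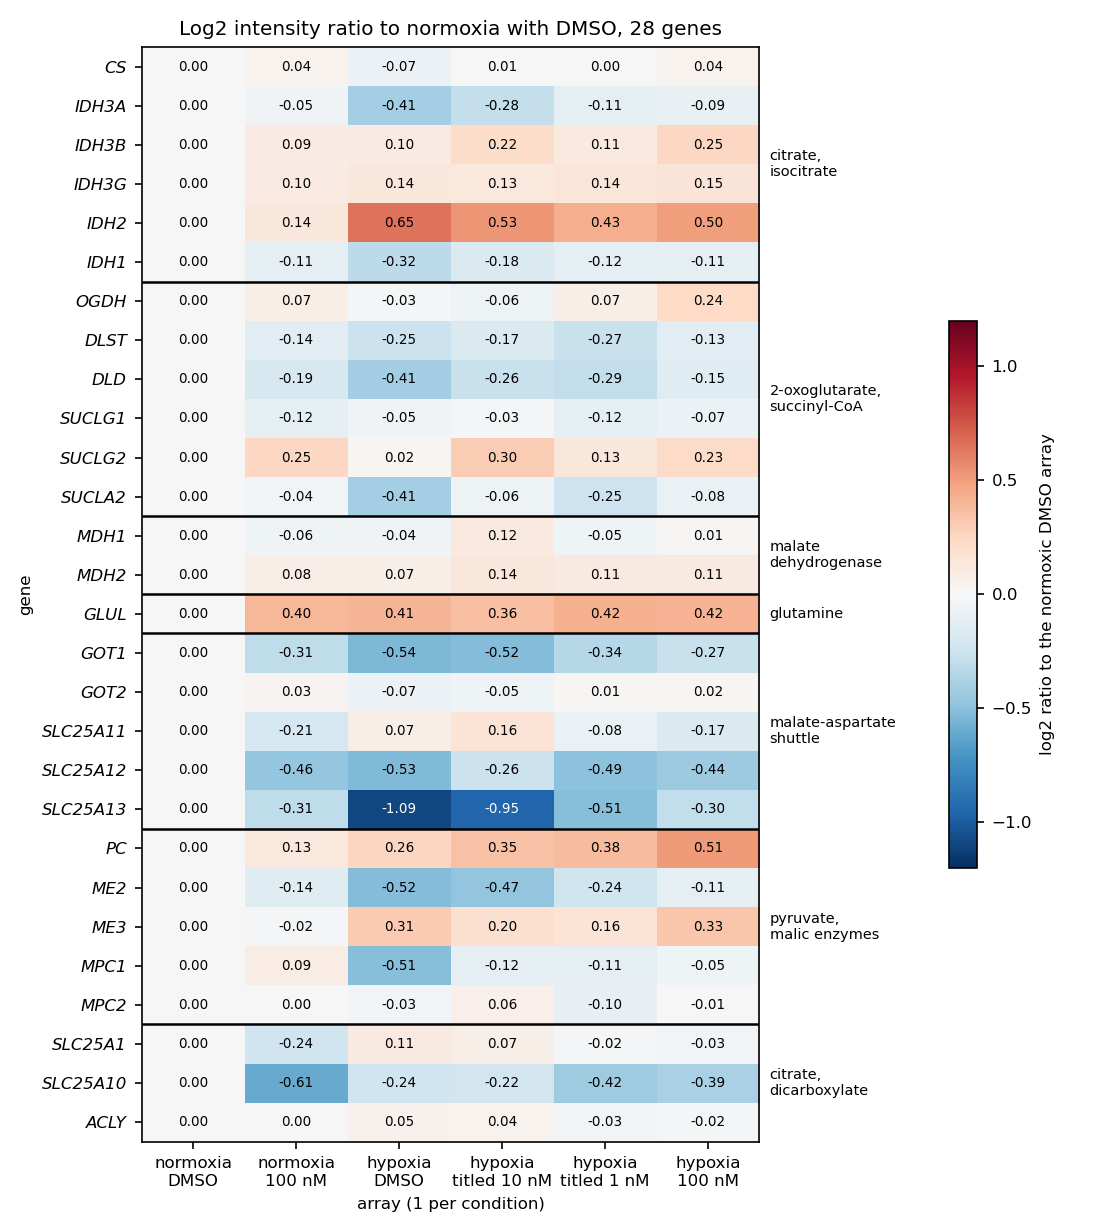
Log2 ratio of each array's intensity to that of the normoxic DMSO array for the 28 members (rows, grouped by role) on the 6 arrays (columns, 1 array per condition). SLC25A13 has the deepest decrease, 1.09 on the hypoxic DMSO array, and IDH2 the largest increase, 0.65 on the same array.

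Most members differed little between hypoxia and normoxia with DMSO. SLC25A13 was the only member at least 1.5-fold lower (1 of 28, beside 15.6% of the brighter genes and 11% of all genes), and IDH2 the only one at least 1.5-fold higher (1 of 28, beside 7.63% and 8.9%). SLC25A13 was also past 2-fold, as were 5.11% of the brighter genes, and no member was 2-fold higher (2.13%). The other 26 (92.9%) lay within 1.5-fold, where 76.8% of the brighter genes did. The spread of the members' differences was correspondingly narrow, with an SD over genes of 0.36 log2 beside 0.55 for the brighter genes. Their median difference was -0.04 log2, beside -0.05 for the brighter genes and 0.08 for all genes. When each array was centred on its median, which lowered the median of all genes by 0.11 log2, the split became 5 members lower (17.9%, beside 20.7% of the brighter genes) and 0 higher (beside 5.18%). The calls added by centring were GOT1, SLC25A12, ME2 and MPC1, and IDH2 was no longer called. By the same shift, which is equal for every gene, IDH3B, SUCLG2, MDH2, SLC25A11, SLC25A1 and ACLY passed from above 0 to below it, while OGDH, SUCLG1, MDH1 and MPC2 passed from below 0 to above it with quantile normalization.

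A narrower limit was taken from the closest pair of arrays. Both 100 nmol/L arrays, normoxic and hypoxic, were the most alike of all pairs, with 95% of the brighter genes within 0.36 log2 (1.29-fold). By that limit, chosen after the data were seen, 8 members were lower in hypoxia with DMSO (26.6% of the brighter genes), 2 were higher (16.9%), and 18 lay within it. The higher members were IDH2 and GLUL, though a second GLUL probe set (0.31 log2) lay within the limit. The lower ones were SLC25A13, GOT1, SLC25A12, ME2, MPC1, IDH3A, DLD and SUCLA2. At 100 nmol/L the hypoxic intensities of these 8 lower members differed from the normoxic ones by between -0.14 and 0.04 log2. The limit comes from this same pair of arrays, so 95% of the brighter genes lie within it there by construction. The matching range for the brighter genes that were lower in hypoxia with DMSO was not computed.

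**Figure D2:**
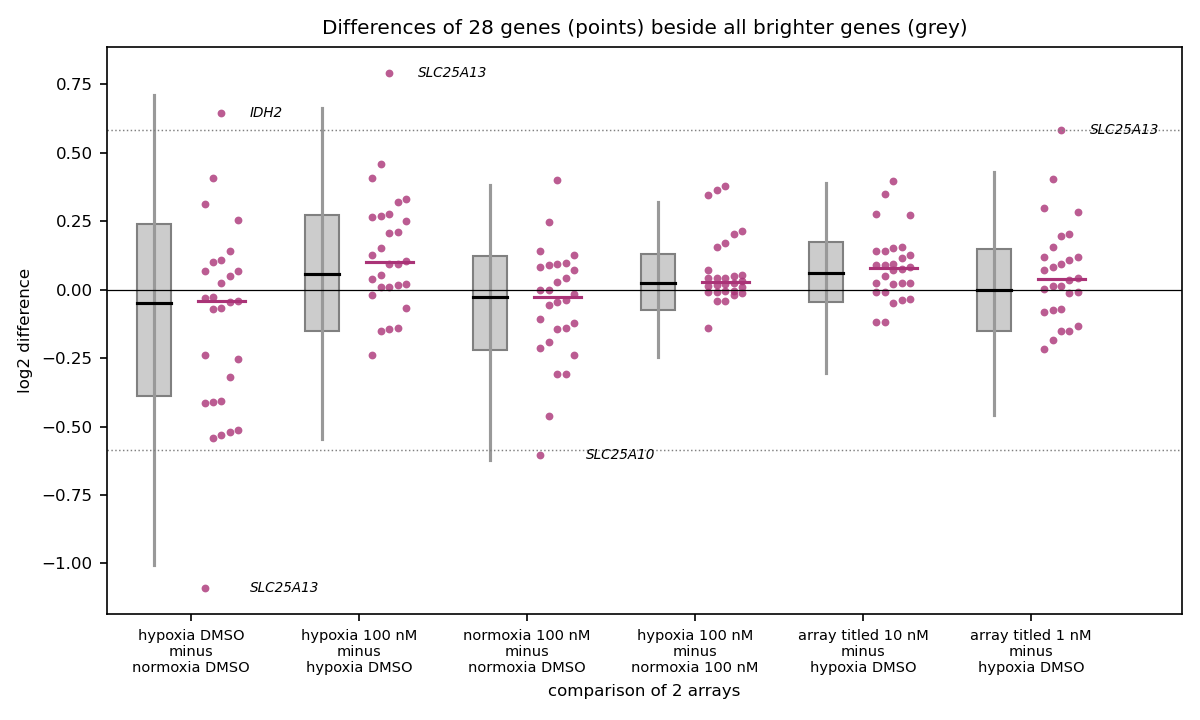
Log2 difference of the 28 members (purple points, with their median) in each comparison, beside the 11301 brighter genes. For the brighter genes the grey bar is the middle 50%, the line the middle 90% and the black mark the median. The dotted lines mark 1.5-fold; of the members, only SLC25A13 and IDH2 lie outside them in hypoxia against normoxia.

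In hypoxia against normoxia with DMSO, the member with the lowest log2 difference, SLC25A13, belongs to the malate-aspartate shuttle. There an aspartate-glutamate carrier and a 2-oxoglutarate-malate carrier in the inner membrane work with cytosolic and mitochondrial aminotransferases and malate dehydrogenases. SLC25A13 (citrin) and SLC25A12 (aralar) are the aspartate-glutamate carriers, and GOT1 is the cytosolic aspartate aminotransferase. All 3 had their lowest intensity on the hypoxic DMSO array, as did GOT2 and 30.6% of the brighter genes. SLC25A13 alone passed 1.5-fold. The 250 bases upstream of their transcript starts are given because hypoxia-inducible factor and basic helix-loop-helix factors of the MYC family bind short motifs found in such regions. Capitals mark ACGTG or GCGTG, the core letters of the HIF-binding site, read on either strand (on the opposite strand, CACGT or CACGC). The sequences are those of RefSeq on GRCh38.p14, written 5′ to 3′ along the gene. All 3 genes lie on the minus strand, SLC25A13 with its window at chr7:96322099-96322348, SLC25A12 at chr2:171894245-171894494 and GOT1 at chr10:99430625-99430874.
SLC25A13: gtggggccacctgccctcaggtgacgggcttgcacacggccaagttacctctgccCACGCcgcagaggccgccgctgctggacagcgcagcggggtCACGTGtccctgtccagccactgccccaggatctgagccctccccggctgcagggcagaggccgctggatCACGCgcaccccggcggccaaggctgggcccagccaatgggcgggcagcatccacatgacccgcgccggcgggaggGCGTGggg
SLC25A12: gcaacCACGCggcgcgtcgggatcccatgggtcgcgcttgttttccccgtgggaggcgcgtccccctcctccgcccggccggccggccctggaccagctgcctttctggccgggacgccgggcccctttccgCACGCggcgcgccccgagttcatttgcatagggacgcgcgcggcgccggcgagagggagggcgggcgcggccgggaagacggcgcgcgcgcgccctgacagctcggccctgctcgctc
GOT1: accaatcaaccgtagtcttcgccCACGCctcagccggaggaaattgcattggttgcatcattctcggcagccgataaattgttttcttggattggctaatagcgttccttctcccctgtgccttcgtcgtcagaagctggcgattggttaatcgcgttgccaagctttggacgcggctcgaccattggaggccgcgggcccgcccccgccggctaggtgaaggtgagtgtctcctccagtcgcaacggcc

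The SLC25A13 window held 5 matches, of which 2 are the opposite-strand readings of a single CACGTG, the palindromic E-box. At least 5 matches were found in 2.15% of the brighter genes' windows and in 1.36% of all windows. SLC25A12 held 2 matches and GOT1 held 1. ACGTG or GCGTG was present in 20 of the 27 members with a window (74.1%), in 58% of the 9106 windows of the brighter genes and in 43.2% of all 35116 windows. CACGTG was present in 2 members, SLC25A13 and ME3 (7.41%, beside 9.19% and 6.34%). A match of letters is a description of the window and not a binding site.

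SLC25A13 had an intensity of 2623 on the normoxic DMSO array and 2117 on the normoxic array with 100 nmol/L. In hypoxia it was 1231 with DMSO, 1356 on the array titled 10 nM, 1847 on the array titled 1 nM and 2132 with 100 nmol/L. The hypoxic DMSO array was thus the lowest and the normoxic DMSO array the highest, and both 100 nmol/L arrays lay close together. Hypoxia with DMSO was 1.09 log2 below normoxia with DMSO (2.13-fold lower), and 3.92% of the brighter genes were as low. At 100 nmol/L the corresponding difference was 0.01 log2. In hypoxia, 100 nmol/L was 0.79 log2 above DMSO (1.73-fold), a size reached by 2.6% of the brighter genes. In normoxia, 100 nmol/L was 0.31 log2 below DMSO. The array titled 1 nM lay 0.59 log2 above hypoxic DMSO (at the 1.5-fold threshold itself), and the array titled 10 nM 0.14 log2 above it.

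GOT1 and SLC25A12 had smaller differences of the same shape in hypoxia against normoxia. Both are described in full because they are neighbors of SLC25A13 in the shuttle, a choice made after their values were seen. GOT1 had intensities of 7073 and 5715 in normoxia with DMSO and 100 nmol/L, and of 4853, 4941, 5582 and 5885 in hypoxia with DMSO, on the arrays titled 10 nM and 1 nM, and with 100 nmol/L. SLC25A12 had, in the same order, 798 and 579.7 in normoxia and 552, 667, 566 and 590 in hypoxia. The normoxic DMSO array was the highest for both genes and the hypoxic DMSO array the lowest. The SLC25A12 intensity with 100 nmol/L was near that of hypoxic DMSO in both oxygen conditions, while that of GOT1 lay between the extremes. Hypoxia with DMSO was lower by 0.54 log2 for GOT1 and by 0.53 for SLC25A12, sizes reached by 17.1% and 17.8% of the brighter genes. Represented by the array titled 10 nM instead, hypoxia differed from normoxic DMSO by -0.52 log2 for GOT1 and by -0.26 for SLC25A12.

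The remaining shuttle members did not share this difference. GOT2, the mitochondrial aspartate aminotransferase, differed by -0.07 log2 between hypoxia and normoxia with DMSO, and SLC25A11, the 2-oxoglutarate-malate carrier, by 0.07. MDH1 and MDH2, the cytosolic and mitochondrial malate dehydrogenases, differed by -0.04 and 0.07. With 100 nmol/L in hypoxia, SLC25A11 was 0.24 log2 below DMSO, the other direction from SLC25A13. At 100 nmol/L the difference between hypoxia and normoxia lay between -0.01 and 0.04 log2 for all 5 aminotransferase and carrier genes.

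**Figure D3:**
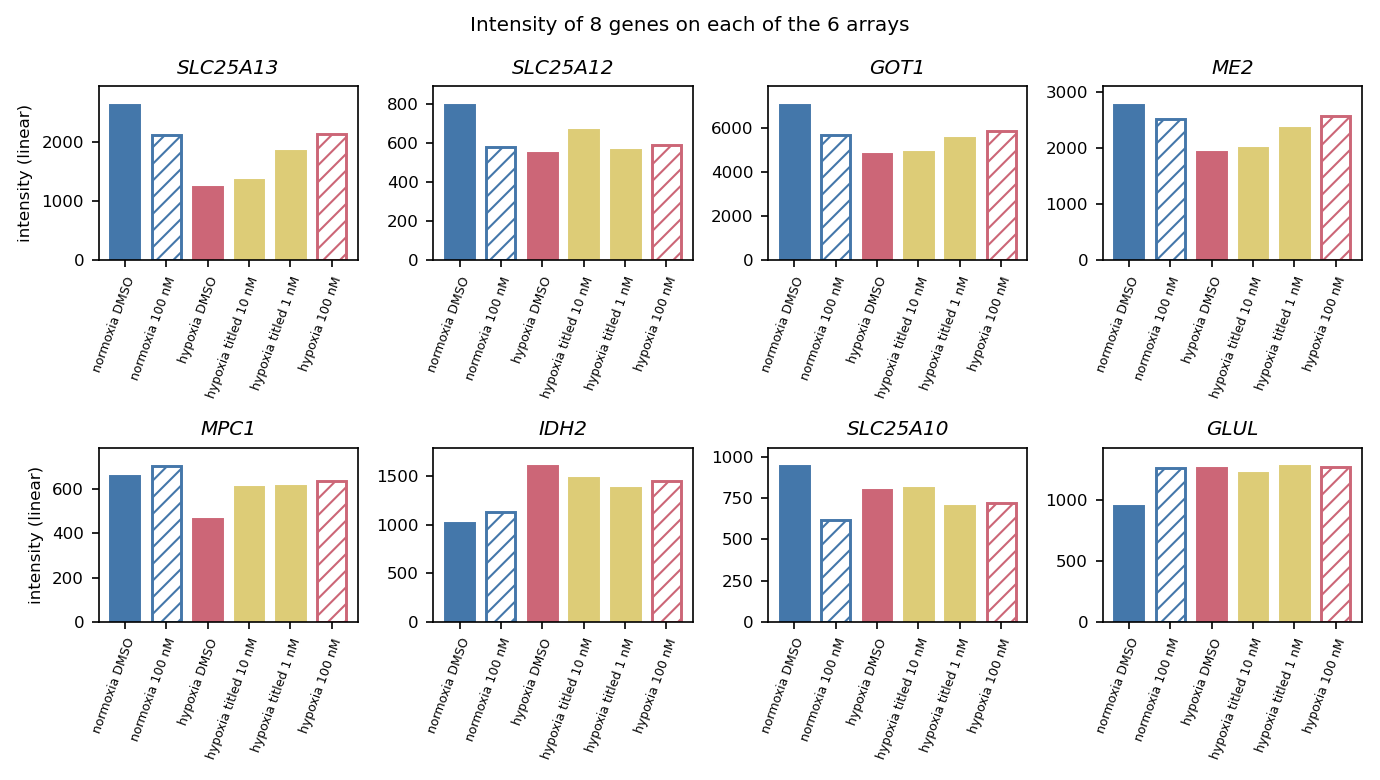
Linear array intensity (vertical axes from 0, 1 panel per gene with its own scale) of 8 members on the 6 arrays; each bar is 1 array, with no error. SLC25A13 runs from 1231 on the hypoxic DMSO array to 2623 on the normoxic DMSO array.

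Of the 6 genes of the citrate and isocitrate steps, only IDH2 passed 1.5-fold in hypoxia against normoxia with DMSO. IDH2 makes NADP-linked isocitrate dehydrogenase of the mitochondria, which can also carboxylate 2-oxoglutarate. Its intensity was 1025 and 1129 in normoxia with DMSO and 100 nmol/L, and 1606, 1481, 1383 and 1455 in hypoxia with DMSO, on the arrays titled 10 nM and 1 nM, and with 100 nmol/L. All 4 hypoxic arrays were above both normoxic ones. Hypoxia was higher by 0.65 log2 with DMSO, a size reached by 6.2% of the brighter genes, and by 0.37 log2 at 100 nmol/L, reached by 3.48%. With 100 nmol/L the hypoxic array was 0.14 log2 below DMSO and the normoxic array 0.14 log2 above it.

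IDH1, the cytosolic NADP-linked enzyme, differed by -0.32 log2 in hypoxia against normoxia with DMSO, so that the IDH2 difference exceeded that of IDH1 by 0.96 log2. IDH3A, the catalytic subunit of the NAD-linked enzyme of the cycle, differed by -0.41 log2, within 1.5-fold. In hypoxia with 100 nmol/L, IDH3A was 0.32 and IDH1 0.21 log2 above DMSO. The other subunits IDH3B and IDH3G differed by 0.10 (-0.01 with centring) and 0.14 log2, and citrate synthase (CS), which condenses acetyl-CoA with oxaloacetate, differed by -0.07. In normoxia the largest differences with 100 nmol/L were 0.14 for IDH2 and -0.11 for IDH1.

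OGDH, DLST and DLD form the 2-oxoglutarate dehydrogenase complex (DLD also serves pyruvate dehydrogenase), and SUCLG1, SUCLG2 and SUCLA2 the succinyl-CoA ligases. Their median difference in hypoxia with DMSO was -0.15 log2. DLD, the dihydrolipoamide dehydrogenase, and SUCLA2, the ADP-forming ligase subunit, each differed by -0.41 log2, within 1.5-fold. With 100 nmol/L in hypoxia, SUCLA2 was 0.33 log2 and OGDH 0.27 log2 above DMSO, and the group median was 0.24. For SUCLA2, the array titled 10 nM differed from normoxic DMSO by -0.06 log2, and hypoxia with 100 nmol/L differed from that array by -0.02. Cells of that array also received the compound, so a compound difference and a low hypoxic DMSO intensity cannot be told apart. The cause was not tested. In normoxia SUCLG2, the GTP-forming ligase subunit, was 0.25 log2 higher and DLD 0.19 lower with 100 nmol/L. DLST, the succinyltransferase, differed by -0.25 log2 in hypoxia against normoxia, and SUCLG1, the shared ligase subunit, by -0.05.

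Pyruvate enters mitochondria through a carrier of MPC1 and MPC2, pyruvate carboxylase (PC) makes oxaloacetate from it, and the mitochondrial malic enzymes ME2 and ME3 make it from malate. MPC1 had intensities of 659.8 and 702 in normoxia with DMSO and 100 nmol/L, and of 463, 609, 613 and 637 in hypoxia with DMSO, on the arrays titled 10 nM and 1 nM, and with 100 nmol/L. Hypoxic DMSO stood below the other 5 arrays. Hypoxia was 0.51 log2 lower with DMSO, and 100 nmol/L was 0.46 log2 above DMSO in hypoxia, a size reached by 11.6% of the brighter genes. Its difference from normoxic DMSO was -0.12 log2 when hypoxia was represented by the array titled 10 nM, and 100 nmol/L lay 0.066 log2 above that array. MPC2, its partner in the carrier, differed by at most 0.03 log2 in either comparison.

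ME2 had intensities of 2782 and 2519.7 in normoxia and of 1938, 2009, 2363 and 2573 in hypoxia, in the same order of arrays. Hypoxia with DMSO was 0.52 log2 lower, and 100 nmol/L was 0.41 log2 above DMSO in hypoxia. ME3, with intensities of 197 to 251, was instead 0.31 log2 higher in hypoxia with DMSO and 0.35 higher at 100 nmol/L. PC was 0.26 log2 higher with DMSO and 0.38 at 100 nmol/L, the largest hypoxic difference of any member at that dose, reached by 3.17% of the brighter genes. By the closest-pair limit, itself taken from both 100 nmol/L arrays, IDH2 and PC were higher in hypoxia at that dose, and ME3 lay within it. That is 2 of 28 members, beside 3.56% of the brighter genes, and 0 members were lower, beside 1.45%.

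SLC25A1 exports citrate from mitochondria, ACLY cleaves it to acetyl-CoA in the cytosol, and SLC25A10 exchanges dicarboxylates such as malate and succinate for phosphate. SLC25A10 had intensities of 944 and 620.4 in normoxia with DMSO and 100 nmol/L, and of 799.6, 813, 704 and 719.9 in hypoxia with DMSO, on the arrays titled 10 nM and 1 nM, and with 100 nmol/L. The normoxic array with 100 nmol/L was the lowest and the normoxic DMSO array the highest. In normoxia, SLC25A10 was the only member lower by 1.5-fold or more with 100 nmol/L, by 0.61 log2 (1.52-fold; 1 of 28, beside 5.78% of the brighter genes and 4.55% of all genes), and no member was higher (1.79% and 1.9%). The SLC25A10 call was lost with quantile normalization (-0.51 log2) and with 32 added before log2 (-0.58). By the closest-pair limit, SLC25A10 and SLC25A12 (-0.46 log2) were lower (2 of 28, beside 14.3% of the brighter genes). GLUL was higher (1 of 28, beside 5.65%), though its second probe set (0.06) lay within the limit. SLC25A1 was 0.24 log2 lower in that comparison and ACLY differed by less than 0.01. In hypoxia against normoxia with DMSO, SLC25A10 was 0.24 log2 lower and SLC25A1 0.11 higher (-0.01 with centring). With 100 nmol/L in hypoxia all 3 genes were below DMSO, as were 41.8% of the brighter genes. The log2 differences were -0.15 for SLC25A10, -0.14 for SLC25A1 and -0.07 for ACLY (0.02 with centring).

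GLUL, glutamine synthetase, makes glutamine from glutamate and ammonia, and was the only glutamine enzyme of the list with a probe set. On its brighter probe set the intensity was 953 in normoxia with DMSO and between 1225 and 1277 on the other 5 arrays. There the normoxic DMSO array alone was low. Hypoxia was 0.41 log2 higher with DMSO and 0.02 higher at 100 nmol/L, and 100 nmol/L was 0.40 log2 above DMSO in normoxia, a size reached by 4.36% of the brighter genes. A second GLUL probe set, lower in mean intensity, gave another pattern. Its intensities were 502 and 521 in normoxia with DMSO and 100 nmol/L, and between 613 and 674 in hypoxia. Hypoxia was 0.31 log2 higher with DMSO and 0.37 higher at 100 nmol/L, and the compound difference in normoxia was 0.06. The compound difference in normoxia and both closest-pair calls of GLUL thus depend on the probe set. Which probe set better measures the GLUL transcript was not tested.

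In hypoxia the compound at 100 nmol/L had 1 member at least 1.5-fold above DMSO, SLC25A13 (1 of 28, beside 6.94% of the brighter genes and 4.97% of all genes), and 0 below (4.23% and 5.7%). By the closest-pair limit 3 members were higher, SLC25A13, MPC1 and ME2 (17.3% of the brighter genes), and 0 lower (11.1%). The median of the members was 0.10 log2, beside 0.06 for the brighter genes. Hypoxic DMSO is part of this comparison and of that between oxygen conditions, so an intensity low on that array lowers the one and raises the other. It was the lowest of the 6 arrays for 11 of the 28 members (39.3%), beside 30.6% of the brighter genes. The hypoxic array with 100 nmol/L was the lowest for 0 members, beside 5.27% of the brighter genes.

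**Figure D4:**
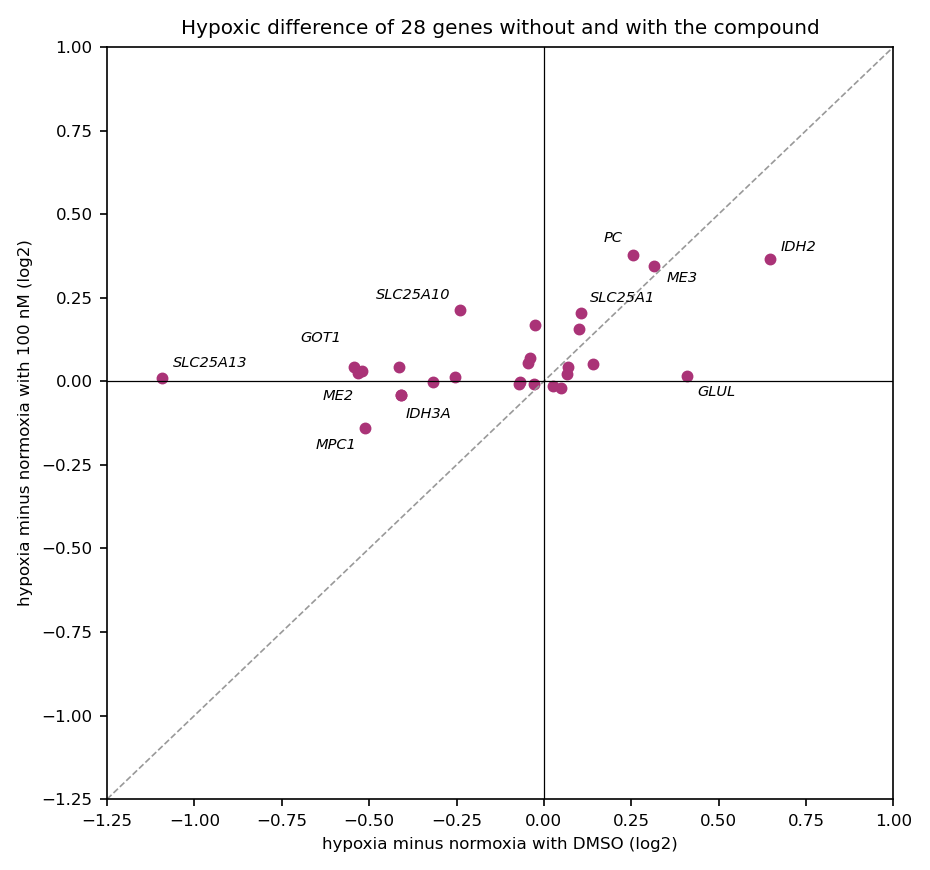
Log2 difference between hypoxia and normoxia with DMSO (horizontal axis) and with 100 nmol/L (vertical axis), which share no array; each point is 1 member and the dashed line marks equal values. SLC25A13 lies at -1.09 and 0.01, and IDH2 at 0.65 and 0.37.

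At 100 nmol/L, hypoxia and normoxia differed by 1.5-fold for 0 of 28 members in either direction, beside 0.106% of the brighter genes lower and 0.779% higher (0.749% and 0.972% of all genes). The members ranged from -0.14 log2 for MPC1 to 0.38 for PC. With DMSO the difference was farther from 0 than at 100 nmol/L for 21 of 28 members (75%), beside 80.3% of the brighter genes. On the array titled 10 nM, 0 members were at least 1.5-fold from hypoxic DMSO in either direction (0.681% of the brighter genes lower and 0.965% higher, 3.2% and 1.06% of all genes). MPC1 and SUCLA2 were the highest there, by 0.40 and 0.35 log2, sizes reached by 4.77% and 6.74% of the brighter genes. On the array titled 1 nM, SLC25A13 was the only member called (1 of 28 higher, beside 2.05% of the brighter and 2.05% of all genes, and 0 lower, beside 2.77% and 2.55%), and MPC1 was next with 0.41 log2.

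The compound differences in hypoxia and in normoxia, which share no array, are set side by side. With 100 nmol/L, 12 members (42.9%) were above DMSO in hypoxia and below it in normoxia, as were 31.8% of the brighter genes, and 1 (3.57%) was the other way round, as were 19.1%. The members above DMSO in both numbered 10 (35.7%, beside 26.4%), and those below it in both 5 (17.9%, beside 22.8%). The difference in hypoxia exceeded that in normoxia by at least 1.5-fold for SLC25A13 (1.10 log2) and GOT1 (0.59 log2), that is for 2 of 28 members, beside 14.5% of the brighter genes and 10.6% of all genes, and was below it by that much for 0 members, beside 5.72% and 10.1%. Centring each array added SLC25A12 and ME2 to the higher calls (4 of 28, beside 19.9% of the brighter genes), and the GOT1 call was lost with quantile normalization (0.53) and with 32 added (0.58). As deposited, ME2 (0.55) and SLC25A12 (0.56) were next. All 4 had their highest intensity on the normoxic DMSO array and their lowest on the hypoxic DMSO array. By construction the excess equals the hypoxic difference at 100 nmol/L minus that with DMSO. It therefore restates those comparisons, and members with these extremes have a high excess by the way it is computed.

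**Figure D5:**
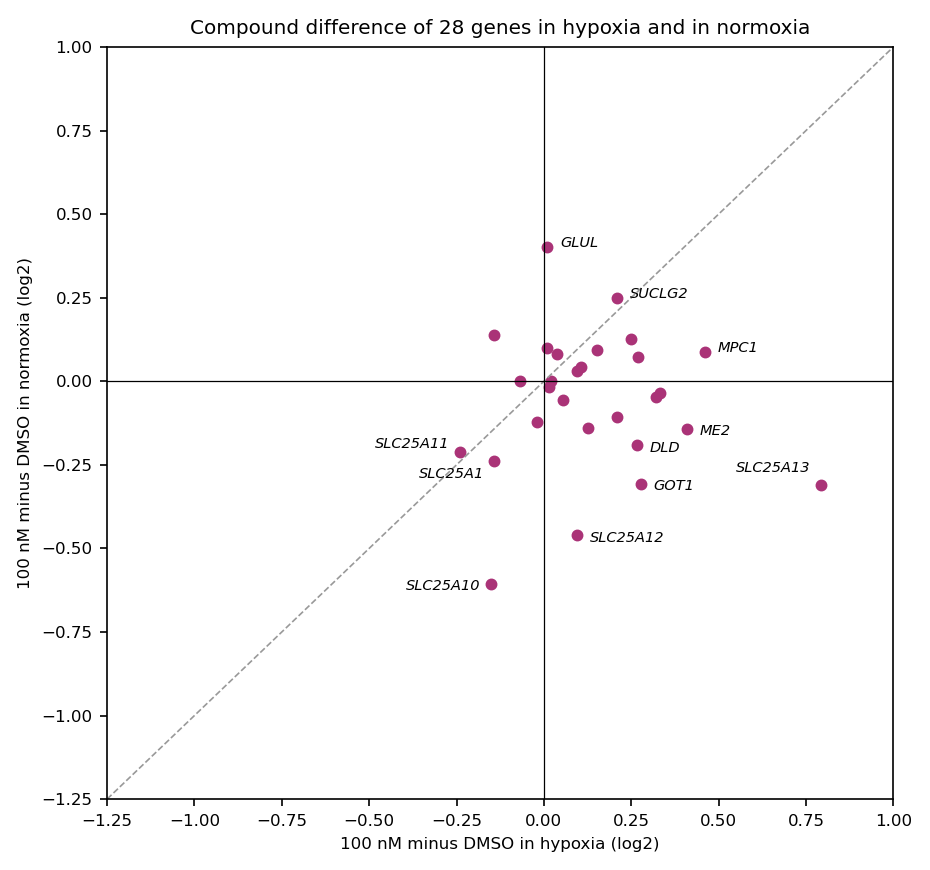
Log2 difference between 100 nmol/L and DMSO in hypoxia and in normoxia, which share no array. Each point is 1 member and the dashed line marks equal values. SLC25A13 has the highest difference in hypoxia, 0.79, with -0.31 in normoxia. SLC25A10 has the lowest difference in normoxia, -0.61, with -0.15 in hypoxia.

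Several pairs of related enzymes or carriers differed in opposite directions or by unequal amounts in hypoxia with DMSO. Over the brighter genes the SD of this difference was 0.55 log2. Gaps between other pairs of genes were not computed, so the gaps below are descriptions only. The difference of ME3 exceeded that of ME2 by 0.84 log2, and that of SLC25A12 exceeded that of SLC25A13 by 0.56. The difference of GOT2 exceeded that of GOT1 by 0.47, that of MPC2 exceeded that of MPC1 by 0.48, and that of SUCLG2 exceeded that of SUCLA2 by 0.43. For MDH2 and MDH1 the gap was 0.11. At 100 nmol/L the gap was 0.32 for the malic enzymes, 0.37 for IDH2 over IDH1 and 0.13 for MPC2 over MPC1, and between -0.05 and 0.03 for the aminotransferases, malate dehydrogenases, aspartate-glutamate carriers and ligase subunits.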

How the data were processed

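RNA of H460 cells was measured on 6 arrays, 1 per condition. The authors deposited linear intensity values for 33297 probe sets. The methods name MAS 5.0 and Expressionist, whereas the submitters' processing notes name RMA. The methods and labels also differ in the input RNA, and the results text names another array type. The build behind the probe sets was not given in the sources used here. The array medians differed (128 to 140), which limits small differences, and precision is limited by the number of arrays.

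The platform annotation gave 1 symbol to 19460 probe sets, several to 1754 and none to 12083. All 28 member symbols were current in RefSeq (GRCh38.p14). The brightest probe set stood for a gene, and differences were taken on the log2 scale with nothing added and no filter. Brighter genes are those whose mean intensity exceeded that of the median probe set. Since each condition had 1 array, no test was run. Differences, counts past 1.5-fold, medians, spreads over genes and promoter matches were computed as descriptions. The steps were tested on simulated data.

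The members, gene lists and related-gene lists were chosen with earlier results of these data known. All members are named, and those past 1.5-fold in any of 6 comparisons get all 6 intensities. Of the others, the larger differences of the role groups are given, though not for every group in every comparison. GOT1, SLC25A12, ME2, MPC1 and GLUL were added after their values were seen. Promoter windows, 250 bases before the start, were available for 27 members and not for OGDH. Those of IDH2, IDH1, MPC2 and ACLY do not adjoin the outermost gene start. Alternatives were quantile normalization, median centring, 32 added before log2, the mean of probe sets, brighter genes only, a 2-fold threshold, replacing the hypoxic DMSO array by that titled 10 nM, and the closest-pair limit. Computation used Python 3.11.15 (matplotlib 3.10.9, scipy 1.17.1, numpy 2.4.6, pandas 2.3.3).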

Additional observations from a re-analysis of the deposited data

Results flagged for a closer look

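For SLC25A13, GOT1 and DLD the compound difference was above 0 in hypoxia and below 0 in normoxia, each by more than 0.18 log2. That limit is the SD over the brighter genes of the closest pair of arrays. Signs in these directions, whatever the size, were found in 42.9% of the members and 31.8% of the brighter genes. The share of the brighter genes past 0.18 log2 in both was not computed. The difference in hypoxia exceeded that in normoxia by 1.10 log2 for SLC25A13, 0.59 for GOT1 and 0.46 for DLD. These differences rest on 1 array per condition and were not tested.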

How the results depend on the processing

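No paired analysis was possible because each condition has 1 array and the labels carry no replicate numbers. With each array centred on its median, 5 members were lower and 0 higher in hypoxia with DMSO (IDH2 at 0.53 log2), 0 were higher on the array titled 1 nM, and the medians were -0.16 in hypoxia against normoxia, 0.19 for 100 nmol/L in hypoxia, 0.18 for the array titled 10 nM and 0.21 for the compound difference in hypoxia minus that in normoxia. With quantile normalization these medians were 0.054, 0.041, 0.012 and 0.025, and 0 members were lower with 100 nmol/L in normoxia or higher on the array titled 1 nM. Adding 32 before log2 also left 0 members in both of these. At 2-fold, SLC25A13 in hypoxia against normoxia was still called, and 0 members were higher there, 0 higher with 100 nmol/L in hypoxia, 0 lower with it in normoxia and 0 higher on the array titled 1 nM. When the array titled 10 nM replaced hypoxic DMSO, 0 members were higher in hypoxia, and the median for 100 nmol/L in hypoxia was 0.034. In that comparison 6 members then changed sign, SLC25A12 (-0.18), MDH1 (-0.10), MPC2 (-0.07), SUCLG2 (-0.07), MDH2 (-0.03) and SUCLA2 (-0.02). The closest-pair limit, chosen after seeing the data, gave 8 lower and 2 higher in hypoxia with DMSO, 3 higher with 100 nmol/L in hypoxia, and 2 lower and 1 higher in normoxia. The compound difference in hypoxia exceeded that in normoxia by 1.5-fold for 4 members with centring, and for 1 with quantile normalization, with 32 added and at 2-fold. The causes were not tested beyond what these settings change by construction.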

Other observations

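Genes of the same routes outside the members were counted from lists of 23 measured genes. In hypoxia against normoxia with DMSO 6 were at least 1.5-fold lower, beside 15.6% of the brighter and 11% of all genes, and 1 was higher, beside 7.63% and 8.9%. Of the 9 measured genes for other glutamine and glutamate handling, 5 were lower, with a list median of -0.73 log2. PSAT1, which makes phosphoserine with glutamate as amino donor, differed by -1.82 log2, SLC1A5, a glutamine importer, by -1.39, and SLC7A11, which exports glutamate in exchange for cystine, by -1.28. SLC38A1, a glutamine transporter, differed by -0.76 and SLC25A18, a mitochondrial glutamate carrier, by -0.73. With 100 nmol/L in hypoxia PSAT1 lay 0.77 log2 and SLC25A18 0.65 log2 above DMSO. PSAT1, SLC1A5 and SLC7A11 were also lower with 100 nmol/L in normoxia, with log2 differences of -0.87, -0.60 and -0.59. None of the 6 measured genes of the other TCA list passed 1.5-fold in these 3 comparisons, and SDHA, a succinate dehydrogenase subunit, was 0.41 log2 higher in hypoxia.

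The phosphoenolpyruvate carboxykinases differed in direction. PCK2, the mitochondrial form, differed by -0.81 log2 between oxygen conditions with DMSO and by -0.73 between 100 nmol/L and DMSO in normoxia. PCK1, the cytosolic form, had low intensities, 57.0 and 68.7 in normoxia with DMSO and 100 nmol/L, and 162.5, 126.9, 81.9 and 59.6 in hypoxia with DMSO, on the arrays titled 10 nM and 1 nM, and with 100 nmol/L. Its hypoxic DMSO array was the highest and stood 1.51 log2 above normoxia, and the difference of 100 nmol/L from it was -1.45. At these intensities, most below the array medians, a background signal cannot be told apart from expression.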
